A study of Mus musculus with 2 samples.

Results

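The 10 genes described here encode the AP-1 and EGR immediate-early transcription factors, namely the FOS members Fos, Fosb and Fosl2, the JUN members Jun, Junb and Jund, the ATF member Atf3 and the EGR members Egr1, Egr2 and Egr3. They were taken by gene symbol from the 23284 genes listed for each library, and all 10 were found. RNA-seq had been performed on leukemic stem cells (LSCs) from mice with a BCR-ABL-driven form of chronic myeloid leukemia (CML), to learn how the loss of the adapter protein STAP-1 changes gene expression in these cells. Each genotype, WT and STAP-1 KO, was sequenced as 1 library, so no difference was checked in replicates and no test was made. Both groups came from donors on a C57BL/6J (Ly5.2) background, and the methods give the age of all mice used as 8 to 14 weeks. In both groups, sorted LSK cells (lineage negative, Sca-1 positive, c-Kit high) were transduced with a retrovirus that carries human BCR-ABL and GFP, and were transplanted with helper bone marrow into lethally irradiated C57BL/6SJL (Ly5.1) recipients. GFP+ CD45.2+ LSK cells were sorted at day 11 after the first transplantation. The STAP-1 KO donors carried a targeted disruption of Stap1, and the sources used here do not state how many recipients were pooled in a library.

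FOS and JUN proteins are basic leucine zipper factors that pair with each other to form the dimer AP-1, which binds the sequence TGANTCA (N is any base). JUN proteins can also pair among themselves, while FOS proteins need a partner. ATF3 is a stress-induced member of the same superfamily that can pair with JUN proteins. The EGR proteins are zinc finger factors that bind GC-rich sites such as GCGNGGGCG, and NAB proteins hold them in check. Most of these genes are switched on within minutes of growth factor, cytokine or stress signals, through ERK and other kinases that act on factors already bound at their promoters, and their mRNAs are short-lived. BCR-ABL signals through the RAS and ERK pathway, which feeds into several of these promoters.

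All 10 genes were lower in STAP-1 KO LSCs. The values are FPKM, fragments per kilobase of transcript scaled to the mapped fragments, and a gene was counted as lower or higher when the libraries differed by at least 2-fold with at least 0.1 FPKM in both. By this measure 9 of the 10 genes fell and none rose, against 22.9% of the 12507 genes tested that fell and 12.3% that rose. Atf3, at 1.95-fold lower, stayed just under the cut-off, and Junb, at 2.04-fold lower, passed it narrowly. Egr2 (17.9-fold) and Egr3 (14.7-fold) fell most, followed by Fosb (6.67-fold) and Fosl2 (5.13-fold), although Fosl2 was 2.11-fold lower once length and GC content of the transcripts were taken into account, as described further on. The median log2 ratio of the 10 genes was -1.93, where the log2 ratio is log2((STAP-1 KO + 0.1)/(WT + 0.1)). With 1 FPKM added to each value in place of 0.1, the log2 ratio of Egr3 was -2.10, behind Fosb (-2.53) and Egr1 (-2.24). For the 10974 genes whose mean reached 1 FPKM, the median was -0.04, and their quartiles were -0.88 and 0.59.

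**Figure D1:**
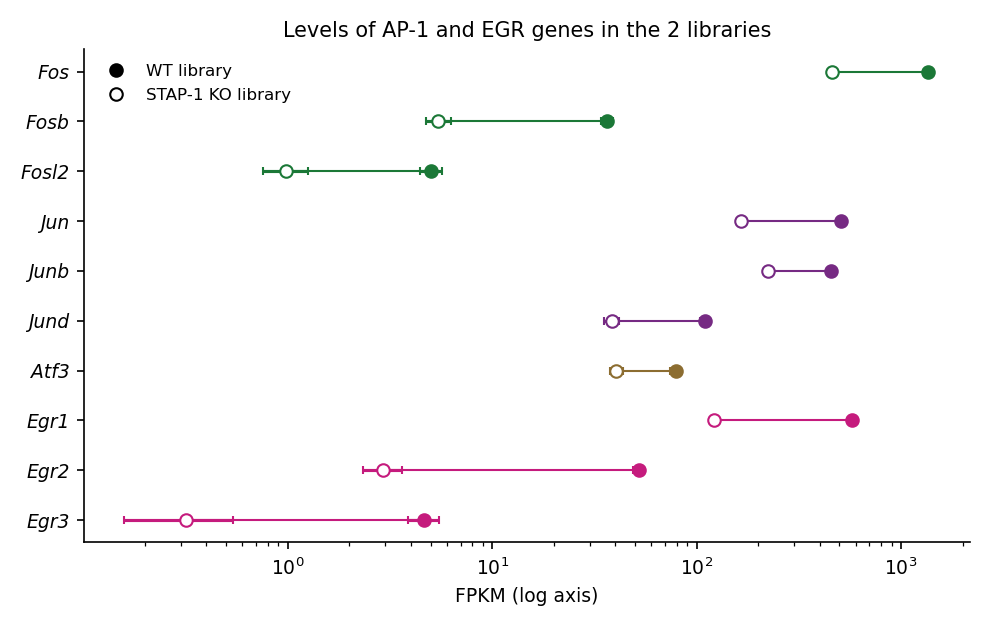
The level of each gene in FPKM (log axis) in WT LSCs (filled points) and STAP-1 KO LSCs (open points), with bars for the 95% exact Poisson interval of the estimated reads, which covers counting error only. Every open point lies to the left of its filled point, and the gap is widest for Egr2, from 52.2 to 2.91 FPKM.

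The number of reads behind an FPKM value is not part of the files. In genes with 1 annotated transcript, low values fell on steps that correspond to effective depths of 7525000 reads in WT LSCs and 10475000 reads in STAP-1 KO LSCs. At these depths, 56.6% of the 297 low values in WT and 58.1% of the 344 in STAP-1 KO came to within 0.02 of a whole number of reads, where evenly spread values would give 4% at a fixed depth. The depths were chosen by a search that made this share as large as possible, so the share is no independent check of them. The reads of each gene were estimated from its FPKM, the length of its longest coding transcript and this depth, and intervals below are 95% intervals from these reads. They cover counting error only, and neither the differences between mice, sorts or preparations nor the amplification of the cDNA. The targeted gene, Stap1, had 62.0 FPKM in WT LSCs and 0.309 FPKM in STAP-1 KO LSCs.

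The sequences just before the start of transcription hold matches to several known signal-responsive elements. Promoter windows (250 bases before a RefSeq start, GRCm38.p6) were at hand for 8 of the 10 genes (all but Egr1 and Egr3, which were not searched), and those of Fos, Fosb, Jun and Egr2 are shown in part as examples from the FOS, JUN and EGR families, which between them hold every kind of element found. Each line reads 5′ to 3′ on the strand of the gene, and capitals mark the matches to TGACG (the core of the site of CREB and ATF proteins, also as CGTCA), TGACATCA (an AP-1 type site), GCGNGGGCG (the EGR site), TATAAA (the TATA box) and the CArG box (the site of SRF).
Fos, chr12:85473750-85473869, plus strand: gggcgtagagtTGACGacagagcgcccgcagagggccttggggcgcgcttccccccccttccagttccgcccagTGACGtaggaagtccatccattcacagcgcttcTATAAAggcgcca
Fosb, chr7:19310056-19310155, minus strand: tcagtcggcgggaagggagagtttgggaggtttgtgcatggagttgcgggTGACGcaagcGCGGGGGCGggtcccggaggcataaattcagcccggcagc
Jun, chr4:95052233-95052332, minus strand: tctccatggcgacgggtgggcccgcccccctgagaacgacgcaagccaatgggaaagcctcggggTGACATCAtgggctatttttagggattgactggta
Egr2, chr10:67537737-67537856, plus strand: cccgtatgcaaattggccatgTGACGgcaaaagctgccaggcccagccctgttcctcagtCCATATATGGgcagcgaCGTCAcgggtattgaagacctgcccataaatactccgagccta
The TGACG element was found before the starts of 5 of the 8 genes (Fos, Fosb, Junb, Atf3 and Egr2), against 19.8% of the 27025 genes with such a window. Within these 250 bases, a CArG box was found for Egr2 alone among the 8, against 1.62% of all genes. Bases further upstream were not searched, so a box there would have been missed for any gene. Egr2 holds it at 2 positions before different annotated starts, and the match shown lies between a pair of TGACG elements. The EGR site was found for Fosb and Fosl2, against 5.33% of all genes, and TGACATCA for Jun, against 3.41%. No window of the 8 genes held TGANTCA, which 7.82% of all genes did. Matches were searched on both strands (the TATA box on that of the gene), and they are descriptions of these letters and not of bound sites, nor was their part in the differences between the libraries tested.

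Fos, the founding member of its family, was the most abundant of the 10 genes in both libraries. It had 1359 FPKM in WT LSCs and 459.9 FPKM in STAP-1 KO LSCs, a fall of 2.96-fold (interval from 2.88 to 3.03). Its place among all listed genes moved from rank 42 to rank 154. Fosb, which encodes a close relative with the same dimer partners, had 36.4 FPKM in WT LSCs and 5.46 FPKM in STAP-1 KO LSCs. That is 6.67-fold lower (5.74 to 7.81), so Fosb fell by more than Fos. Fosl2 (Fra-2), a later and longer-lived product of the response, had 5.02 FPKM in WT LSCs and 0.980 FPKM in STAP-1 KO LSCs, or 5.13-fold lower (3.88 to 6.85). As deposited, the intervals of Fosb and Fosl2 overlapped. Once length and GC content were taken into account, as described further on, the falls were 3.28-fold for Fos, 4.84-fold for Fosb and 2.11-fold for Fosl2. Fos made up 97.0% of the summed FPKM of the 3 genes in WT LSCs (96.9% to 97.2%) and 98.6% in STAP-1 KO LSCs (98.4% to 98.8%), while the share of Fosb went from 2.60% to 1.17%. The ratio of Fos to Fosb, both per length, was 37.3 in WT LSCs and 84.2 in STAP-1 KO LSCs.

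The JUN members fell unevenly. Jun, the main transcriptional activator of the family, had 510.0 FPKM in WT LSCs and 165 FPKM in STAP-1 KO LSCs, which is 3.09-fold lower (2.99 to 3.19). For Junb, often a restraint on Jun in proliferating cells and an inhibitor of myeloid expansion, the values were 456.7 and 224 FPKM, which is 2.04-fold lower with an interval from 1.95 to 2.12 that includes the cut-off. Jund, which is expressed more steadily than the others in many cells, had 110.1 FPKM in WT LSCs and 38.4 FPKM in STAP-1 KO LSCs, or 2.87-fold lower (2.60 to 3.17). Jun exceeded Junb in WT LSCs by a ratio of 1.12, and in STAP-1 KO LSCs the ratio was 0.737, so their order was exchanged. Junb accordingly made up 42.4% of the summed FPKM of the JUN members in WT LSCs (41.6% to 43.2%) and 52.4% in STAP-1 KO LSCs (51.4% to 53.5%). The share of Jun went from 47.4% to 38.6%. As deposited, the ratio of Fos to Jun was nearly the same in both libraries, at 2.67 and 2.78, whereas that of Fos to Junb went from 2.98 to 2.05. Once length and GC content were taken into account, as described further on, Fos (log2 ratio of -1.72) fell further than both Jun (-1.43) and Junb (-0.97).

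Atf3 had 79.1 FPKM in WT LSCs and 40.5 FPKM in STAP-1 KO LSCs. Its ratio of 1.95-fold lower (1.78 to 2.15) had an interval that includes the cut-off, and 23.0% of the expressed genes (those whose mean reached 1 FPKM) had a log2 ratio as low as its -0.96 or lower. As deposited, Atf3 and Junb lay closest to the median of all genes, on either side of the 2-fold line. With length and GC content taken into account they changed sides, at -1.19 and -0.97, and Fosl2 at -1.07 lay between them.

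The EGR members showed the widest range of falls. Egr1, a direct target of ERK signaling through SRF and its ELK partners, had 574.9 FPKM in WT LSCs and 121 FPKM in STAP-1 KO LSCs, a fall of 4.74-fold (4.60 to 4.89), and its rank went from 110 to 987. Once length and GC content were taken into account, as described further on, its fall was 2.76-fold. Egr2, which shares the binding site of Egr1 and acts in myeloid and lymphoid differentiation, had 52.2 FPKM in WT LSCs and 2.91 FPKM in STAP-1 KO LSCs. This fall of 17.9-fold (14.3 to 22.6) rests on about 1078 and 84.0 estimated reads, and 1.14% of the expressed genes had a log2 ratio as low or lower. Egr3, a close relative of Egr2 that is also induced by growth factor and antigen receptors, had 4.64 FPKM in WT LSCs and 0.316 FPKM in STAP-1 KO LSCs. Its fall of 14.7-fold rests on about 12.4 estimated reads in STAP-1 KO LSCs and has an interval from 8.36 to 30.0, which includes the value of Egr2. Egr2 and Egr3 together went from 56.8 to 3.23 FPKM, 17.6-fold lower (14.3 to 21.7). The intervals of Egr2 and of this sum did not overlap that of Egr1. Egr2 made up 8.26% of the summed FPKM of the EGR members in WT LSCs and 2.34% in STAP-1 KO LSCs. The fourth EGR gene, Egr4, is not among the 10 and had 0.916 and 0.202 FPKM.

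**Figure D2:**
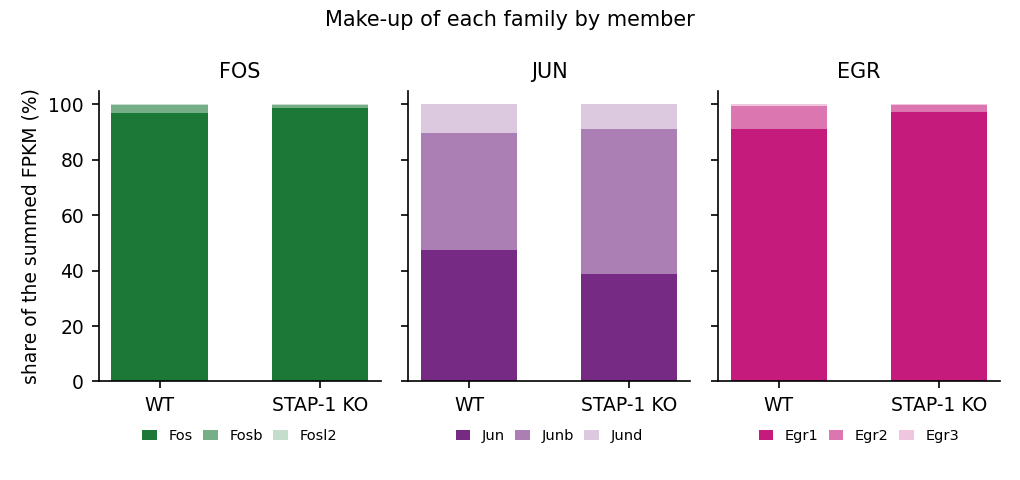
The share of each member in the summed FPKM of its family (%, stacked bars) in the WT and the STAP-1 KO library. The JUN bars show Junb going from 42.4% to 52.4%, while Fos and Egr1 hold over 90% of their families in both libraries.

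In order of level, the WT library had Fos first, then Egr1, Jun, Junb, Jund, Atf3, Egr2, Fosb, Fosl2 and Egr3. Of neighbours in this order, only Fosl2 and Egr3 did not differ beyond counting error, with a ratio of 1.08 (0.875 to 1.34). In the STAP-1 KO library the order was Fos, Junb, Jun, Egr1, Atf3, Jund, Fosb, Egr2, Fosl2 and Egr3. There Atf3 and Jund did not differ beyond counting error, with a ratio of 1.06 (0.948 to 1.18). Egr1 moved from the second to the fourth place and Egr2 from the seventh to the eighth. These orders are of the deposited values. With length and GC content taken into account, as described further on, the log2 ratios of Egr1 (-1.47) and Jun (-1.43) were alike.

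Compared as families, the summed FPKM went from 1401 to 466 for the FOS members, from 1077 to 428 for the JUN members and from 632 to 124.5 for the EGR members. These are falls of 3.0-fold (2.93 to 3.08), 2.52-fold (2.45 to 2.58) and 5.07-fold (4.92 to 5.23). The EGR sum fell 1.69 times as far as the FOS sum (1.62 to 1.76) and 2.02 times as far as the JUN sum (1.94 to 2.10). The FOS sum fell 1.19 times as far as the JUN sum (1.15 to 1.24). Sums are carried by the most abundant member, Fos or Egr1, and each interval is of counting error in 1 pair of libraries.

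The order of the EGR and FOS sums depended on a joint correction for transcript length and GC content. Across 10862 expressed genes with an annotated transcript, the log2 ratio fell with the length of the longest coding transcript (Spearman's rho of -0.40 across genes of the same pair of libraries, which are not independent replicates). Among genes with transcripts of 77 to 884 bases the ratio had a median of 0.51 on this scale, and among those from 7645 bases one of -1.01. The transcripts of the 10 genes range from 1668 bases (Jund) to 6537 bases (Fosl2), and all 10 log2 ratios lay below the median of genes of like length, by 1.27 (Fosl2) to 4.15 (Egr2). After each log2 ratio was reduced by the median of genes in the same bin of length and then of GC content, Fosl2 went from -2.25 to -1.07, Egr1 from -2.24 to -1.47 and Fosb from -2.72 to -2.28. Egr2 went from -4.12 to -4.16 and Egr3 from -3.51 to -3.30. With this correction the sums fell 3.31-fold for FOS, 2.33-fold for JUN and 2.99-fold for EGR, so that EGR no longer fell further than FOS. With length alone, an alternative added after seeing the data, the falls were 3.63-fold, 2.76-fold and 3.71-fold, with EGR and FOS close together. The longest coding transcript of Egr1 has 4484 bases and the shortest 3036. With the shortest coding transcripts, an alternative chosen after seeing the data, the corrected log2 ratio of Egr1 was -2.12, and the falls were 3.07-fold, 2.21-fold and 4.66-fold, with EGR again ahead of FOS. For Egr2 and Egr3, whose shortest coding transcripts of 356 and 1509 bases are much shorter than the longest, the values were -3.88 and -3.49.

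**Figure D3:**
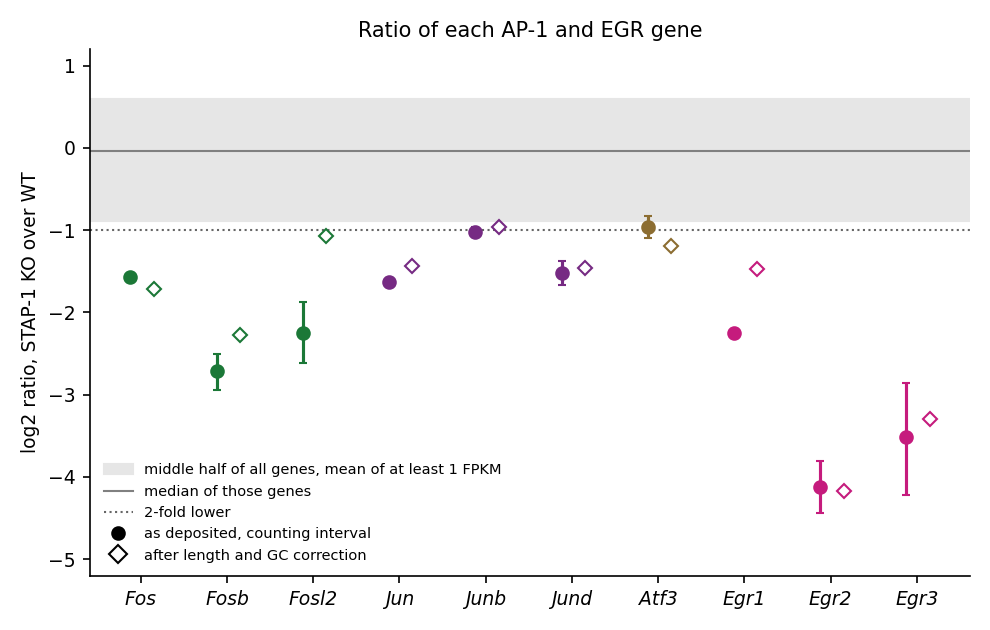
Log2 ratio of STAP-1 KO over WT for each gene as deposited (filled points, bars for the 95% interval of counting error) and after correction for transcript length and GC content (open diamonds), with the median (line) and the range between the quartiles (grey) of the 10974 expressed genes and a dotted line at 2-fold lower. Egr2 and Egr3 lie lowest both before and after the correction, while Egr1 and Fosl2 move toward the others.

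**Figure D4:**
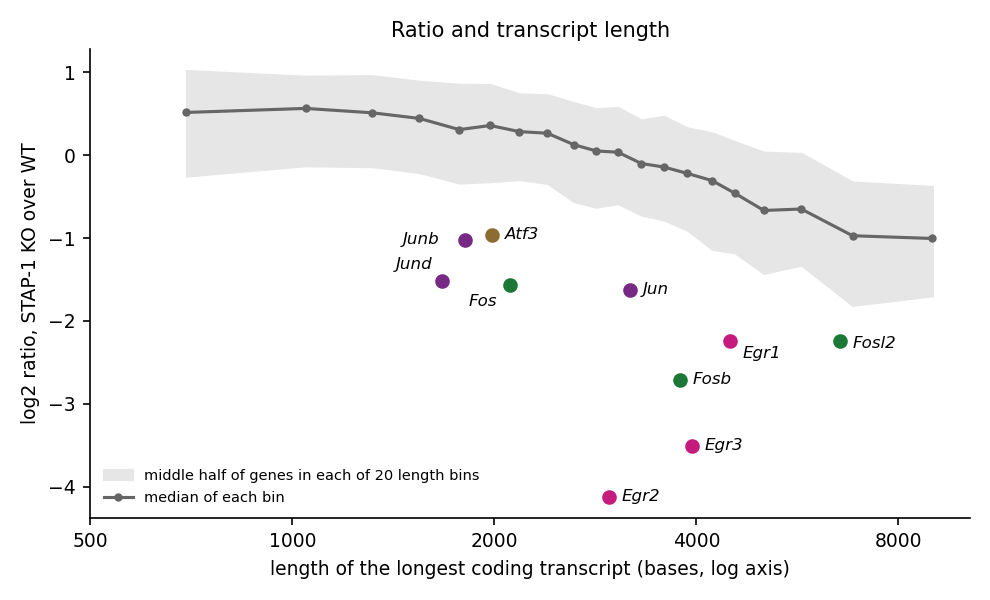
Log2 ratio of STAP-1 KO over WT against the length of the longest coding transcript (bases, log axis) for the 10 genes (coloured points), with the median (line) and the range between the quartiles (grey) of all expressed genes in 20 bins of length. All 10 points lie below the line, Fosl2 by 1.27 and Egr2 by 4.15.

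The loci of the genes differ in structure. By GENCODE M21 (GRCm38), Jun (chromosome 4, 95049034 to 95052222, minus strand), Junb (chromosome 8, 84974484 to 84978718, minus strand) and Jund (chromosome 8, 70698949 to 70700616, plus strand) have coding transcripts of 1 exon. Fos (chromosome 12, 85473890 to 85477273, plus strand), Fosb (chromosome 7, 19302696 to 19310051, minus strand), Fosl2 (chromosome 5, 32135801 to 32157842, plus strand) and Atf3 (chromosome 1, 191170296 to 191218039, minus strand) have 4 exons in the longest coding transcript. The EGR genes have 2 exons, with Egr1 on chromosome 18 (34859823 to 34864984), Egr2 on chromosome 10 (67535475 to 67542188) and Egr3 on chromosome 14 (70077203 to 70082614), all on the plus strand. The annotated span of Junb overlaps the end of Prdx2 on the opposite strand, and reads of the overlap cannot be told apart without strand. Counted from the RefSeq start at the other end of this span, the coding transcript of 1809 bases does not reach the overlap. Prdx2 had 406.5 FPKM in WT LSCs and 563 FPKM in STAP-1 KO LSCs, a difference in the direction opposite to that of Junb. Jun and Jund overlap antisense genes (Junos and Gm11175), which are not analysed here.

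Of 13 other partners of the AP-1 dimer 11 could be tested, of which 6 fell and none rose (22.9% and 12.3% of all genes tested), and the median log2 ratio of the 10 expressed ones was -0.98. Fosl1, the remaining FOS gene, had 1.82 FPKM in WT LSCs and 0.847 FPKM in STAP-1 KO LSCs. Batf, which pairs with JUN proteins in lymphoid and myeloid cells, was abundant and fell from 149 to 64.4 FPKM. Its relative Batf3 fell from 5.56 to 0.569 FPKM, the latter on about 3.51 estimated reads, and Creb5 fell from 5.91 to 0.717 FPKM. Jdp2, a repressor of AP-1, had 19.1 and 17.8 FPKM, and Atf2 had 25.1 and 23.3 FPKM. Batf2, which could not be tested, was at 0 in WT LSCs and had 0.904 FPKM in STAP-1 KO LSCs.

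The corepressors of the EGR proteins fell with them. Nab2, which is itself induced by EGR proteins and closes a feedback loop, had 15.02 FPKM in WT LSCs and 4.54 FPKM in STAP-1 KO LSCs, and Nab1 had 45.4 and 21.9 FPKM, a call that was lost after the correction for length and GC content. The ratio of Egr1 to Nab2 was 38.3 in WT LSCs and 26.7 in STAP-1 KO LSCs. After the correction with the longest coding transcripts, the log2 ratios of Egr1 (-1.47) and Nab2 (-1.46) were alike, so that this difference was gone. With the shortest coding transcripts Egr1 was at -2.12, and Nab2 was not compared at that setting. The ratio of Egr2 to Nab2 went from 3.47 to 0.641, so that Egr2 exceeded Nab2 only in WT LSCs.

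Lists of the factors and kinases that switch these genes on had medians closer to that of all genes. Srf, the factor that binds CArG boxes, had 7.14 FPKM in WT LSCs and 6.34 FPKM in STAP-1 KO LSCs, and its ETS partner Elk3 had 9.11 and 9.37 FPKM. Of 11 SRF, ELK, CREB and MEF2 genes, 4 fell (Elk1, Elk4, Crem and Mef2a) and 1 rose, beside 22.9% and 12.3% of all genes. The median log2 ratio of -0.71 became 0.03 after the correction for length and GC content, and Elk1, Elk4 and Mef2a then no longer passed the cut-off. Crem, which encodes activating and repressing partners of CREB, fell from 37.0 to 12.2 FPKM, and Mef2a fell from 18.2 to 7.78 FPKM. The gene that rose was Mef2c, a MEF2 factor of myeloid and lymphoid progenitors, from 4.02 to 13.8 FPKM. Among 17 genes of the ERK, JNK and p38 cascades, 4 fell and none rose, which is 4 of 17 beside the 22.9% of all genes. The median log2 ratio of the 16 expressed ones was -0.61 (-0.38 after the correction, when Map2k4 alone still passed, beside 18.4% of all genes that were then lower). The 4 genes were Map2k4 (87.8 and 41.5 FPKM), an activator of JNK, the ERK5 gene Mapk7 (13.3 and 6.19 FPKM), Rps6ka1 (141 and 69.9 FPKM), which encodes the ERK effector RSK1, and Rps6ka4 (18.8 and 9.10 FPKM), which encodes the kinase MSK2. Mapk3, which encodes the kinase ERK1, had 40.9 and 23.5 FPKM and did not pass the cut-off.

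Of 20 genes known as targets of AP-1, 14 could be tested, of which 11 fell and none rose (22.9% and 12.3% of all genes), and the median log2 ratio of the 14 expressed ones was -1.83 (-2.04 after the correction). The chemokine gene Ccl2 fell from 383 to 15.8 FPKM, Il6 from 384 to 52.1 FPKM and Il4 from 274 to 42.2 FPKM. Several of these are cytokine genes that mast cells make when activated. The other listed genes, among them Il2 and Mmp10 at 0 in both libraries, were under 0.1 FPKM in at least 1 library. For the EGR targets, 6 of 10 tested genes fell and none rose (22.9% and 12.3% of all genes), and over the 9 expressed genes the median was -1.05. The calls of Fn1 and Sphk1 were lost after the correction. The retinoblastoma gene Rb1 fell from 54.2 to 10.7 FPKM and Tgfb1 from 177 to 75.6 FPKM. Cd44 and Ccnd1, which stand in both target lists, did not pass the cut-off, Cd44 with 31.9 and 26.4 FPKM and Ccnd1 with 1.38 and 1.01 FPKM.

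Other immediate-early genes, 38 in number, moved in both directions. Of the 37 that could be tested, 16 fell, 3 rose and 18 did neither, beside 22.9% and 12.3% of all genes that fell and rose, and the median log2 ratio of the 34 expressed ones was -0.85. The polo-like kinase gene Plk3 fell from 63.2 to 7.96 FPKM, the mRNA decay factor gene Zfp36l1 from 28.5 to 4.09 FPKM and the NF-κB inhibitor gene Tnfaip3 from 183 to 28.4 FPKM. Dusp1, a phosphatase gene induced together with Fos, went from 989 to 376 FPKM, and the ratio of Fos to Dusp1 was 1.37 and 1.22. The 3 genes that rose, named after their values were seen, were Myc (59.3 and 169 FPKM), Dusp2 (21.3 and 73.5 FPKM) and Ier5l (0.197 and 1.41 FPKM). Ier2 (336.5 and 250.1 FPKM) and Nfkbia (315 and 247 FPKM), which are commonly induced together with Fos, did not pass the cut-off. Heat shock genes, which also answer to stress during the handling of cells, had a median on the other side of 0. Of 9 such genes 4 rose and none fell (12.3% and 22.9% of all genes), and the 8 expressed genes had a median of 0.94. After the correction, 1 of the 9, Hsp90aa1, still passed, which is at the share of all genes that were then higher (11.4%). Hspe1 had 114 FPKM in WT LSCs and 287 FPKM in STAP-1 KO LSCs, while the strongly inducible Hspa1a had 19.7 and 18.6 FPKM. How the cells were handled before lysis was not tested.

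**Figure D5:**
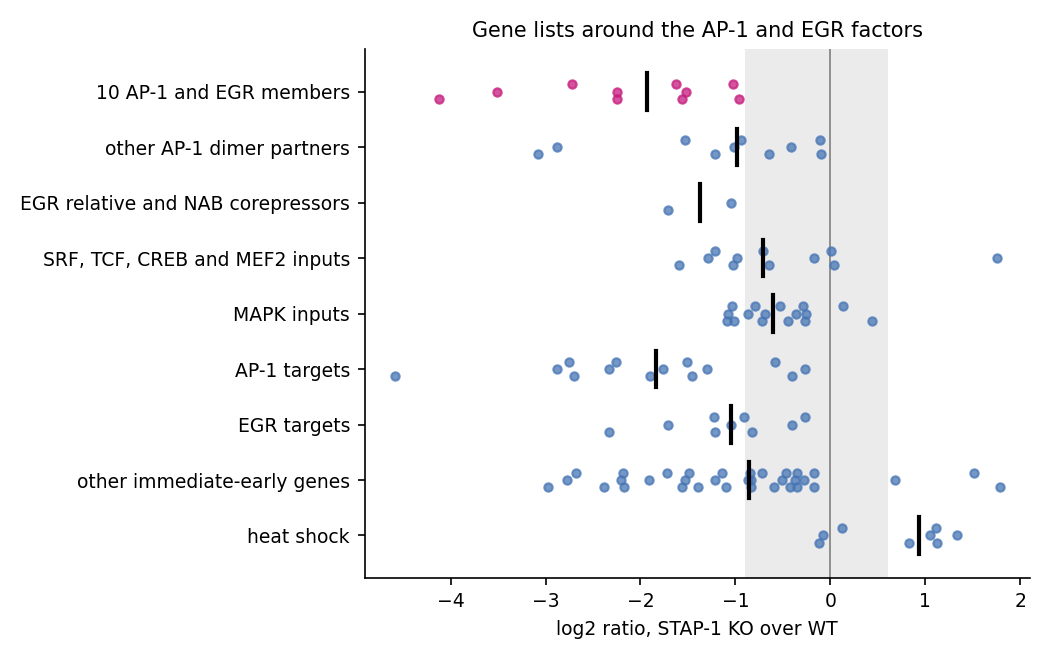
Log2 ratio of STAP-1 KO over WT of single expressed genes (points) in the 10 AP-1 and EGR genes and in 8 related lists, with the median of each list (black bars) and the range between the quartiles of all genes (grey). The AP-1 targets have a median of -1.83 and the 10 genes one of -1.93, which become -2.04 and -1.46 after the correction, and the heat shock genes (0.94) lie on the other side of 0.

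Markers of several other cell types also differed between the libraries, where 22.9% of all genes fell and 12.3% rose. The 12 mast cell and basophil markers, of which 11 fell and none was at 0 in either library, summed to 52392 FPKM in WT LSCs and 5355 FPKM in STAP-1 KO LSCs, with single values from 71.1 to 17984 FPKM and from 8.74 to 1774 FPKM. The 5 primary granule markers all rose, from a sum of 564 to 4623 FPKM, and ranged from 41.5 to 248 FPKM and from 460.2 to 1973 FPKM. The secondary granule markers fell in 5 of 7 genes (sums of 414 and 186 FPKM), and the monocyte markers rose in 4 of 7 and fell in 2 (201 and 241 FPKM). Erythroid genes fell in 2 of 6 and rose in 1, and megakaryocyte genes fell in 2 of 7 and rose in 1, which is near the shares over all genes. The erythroid gene that rose was Hba-a1 (34.8 and 380 FPKM), and Hba-a2 (773 and 15.9 FPKM) was among those that fell. How reads were assigned between these 2 alpha-globin genes was not tested. Of 3 B cell genes that could be tested 2 rose, Cd79b from 3.10 to 17.8 FPKM and Igll1 on about 1 and 3 estimated reads, while Ebf1 was at 0 in both libraries. Among 4 T and NK cell genes that could be tested 1 fell and none rose, and the only expressed one, Nkg7, had 464 and 795 FPKM. Of 9 LSK and stem cell genes 4 fell and 1 rose (2 and 1 after the correction), with a median log2 ratio of -0.38 over the 8 expressed ones. Kit and Ly6a, which encode the sorting markers c-Kit and Sca-1, had 468 and 30.1 FPKM and 285 and 106 FPKM, while Slamf1 rose from 3.39 to 8.67 FPKM. The part of these shifts in the fall of the AP-1 and EGR genes was not tested. In bulk RNA, fewer cells of a type that expresses a gene and less RNA per cell cannot be told apart, and with 1 library per genotype neither can genotype, mouse, sort and preparation.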

How the data were processed

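RNA-seq of 1 WT and 1 STAP-1 KO library of CML LSCs was used. The cDNA was made with a SMART-Seq v4 low-input kit and sequenced as single reads of 75 bases. Per the labels and the methods, the authors mapped the reads to mm10 with TopHat2 2.0.13 and Bowtie2 2.2.3 and computed gene FPKM with Cuffnorm (Cufflinks 2.2.1). For SAMtools the submitters' processing notes give 0.1.19 and the methods another version. The gene annotation and the way the libraries were scaled are not given in the sources used here.

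From the deposited FPKM values, ratios, counts past 2-fold and family sums were computed in Python 3.11.15 (scipy 1.17.1 for the intervals, pandas 2.3.3 for the tables). Log2 ratios used a pseudocount of 0.1 FPKM, which understates the change of low genes. Intervals of single ratios are exact (Clopper-Pearson), and those of sums and shares use the normal approximation on the log or logit scale, all from estimated reads. For these, 219 (WT) and 211 (STAP-1 KO) bases were taken off each transcript, as the steps of low values gave. Lengths, GC content and loci came from GENCODE M21, which matched 20919 symbols as written and 1914 through an older symbol, and left 451 unmatched. The correction used 20 bins of length, then 20 of GC content. The scripts were tested on simulated data.

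The 10 genes and the gene lists were chosen with earlier results of these data known, and the lists come from general knowledge. All 10 genes are named. Of each other list, the rule named up to 3 genes, ranked by the absolute size of the log2 ratio with 1 FPKM added, among genes whose mean reached 1 FPKM, and the text adds Stap1, Fosl1, Egr4, Nab1, Nab2, Srf and Elk3. Further genes named (for example Jdp2, Atf2, Batf2, Rps6ka4, Igll1, Cd44, Dusp1, Ier2, Nfkbia, Mapk3, Hspa1a and Prdx2) were added after their values were seen. Cell marker lists are summarised.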

Additional observations from a re-analysis of the deposited data

How the results depend on the processing

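Of the 10 genes, all 10 stayed lower in the STAP-1 KO library under every setting tried, and none rose past the cut-off. The count of genes at least 2-fold lower was 9, and it was 5 at a 4-fold cut-off (Fosb, Fosl2, Egr1, Egr2 and Egr3) and 7 to 10 under the other settings. Of all genes tested, 22.9% were lower, and this share was 8.56% at 4-fold, 32.8% at 1.5-fold, 19.3% at a floor of 1 FPKM, 18.4% after the correction for length and GC content (20.9% with the shortest transcripts, 19.03% with length alone) and 22.1% to 24.5% under the rest. Junb dropped out when the libraries were centred on the median of all genes and under both corrections for length and GC content, and Atf3 was added at 1.5-fold, under trimmed sum scaling, under both corrections and with length alone. At a floor of 1 FPKM, Fosl2 and Egr3 could not be tested. The ratios of summed FPKM (STAP-1 KO over WT) were 0.333 for FOS, 0.398 for JUN and 0.197 for EGR. With median centring they were 0.343 for FOS and 0.409 for JUN, and with trimmed sum scaling 0.322, 0.384 and 0.190 in the same order. After the correction for length and GC content they were 0.302, 0.430 and 0.334, and with the shortest coding transcripts, added after seeing the data, 0.453 for JUN and 0.215 for EGR. With length alone, also added after seeing the data, they were 0.276, 0.362 and 0.269. The median log2 ratio of -1.93 became -1.46 and -1.55 under the corrections with the longest and the shortest transcripts and -1.61 at a pseudocount of 1 FPKM. Of 80 further log2 ratios of single genes, 54 moved by less than their counting interval, 26 moved by more and 0 changed sign. The other scalings moved the median of all genes by less than 0.05 on the log2 scale. No paired analysis was possible because each genotype has 1 library, and for the same reason no replicate could be left out. Depth limits Egr3 most, with about 12.4 estimated reads in the STAP-1 KO library.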
